A study of Mus musculus with 4 samples.

Results

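The 10 mRNAs described here, C1qa, C1qb, C1qc, Csf1r, Cx3cr1, P2ry12, Tmem119, Trem2, Tyrobp and Ctss, are genes used to recognise microglia, and they were taken by symbol from the 31053 genes counted. The samples were primary cortical neurons of wild-type (WT) mice, cultured from the cortex of E18 C57BL/6J embryos and given floxuridine, an agent that limits dividing cells. RPS2, which belongs to the small subunit of the ribosome, was pulled down with an antibody after crosslinking (eCLIP), and the reads of 2 IP libraries were set beside those of 2 total RNA libraries made from the sample before the pulldown. Under treatment, the labels name rRNA depletion for the IP and none for total RNA, while the methods place this step after the libraries were made and name no group. If the labels hold, its effect cannot be told apart from the IP. Replicate numbers 1 and 2 occur in both groups. The labels do not say whether the numbers are separate cultures, and p-values therefore measure only the spread between these libraries.

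Microglia are the resident macrophages of the brain. They enter the embryonic brain from the yolk sac, depend on signalling through the CSF1 receptor, clear debris and synapses, and are the main source of complement C1q in brain tissue. In a culture of cortical neurons they are among the cells that may be carried over from the tissue. Most of the 10 genes are also expressed by macrophages outside the brain, whereas P2ry12 and Tmem119 are markers of the resting microglial state.

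Between the replicate numbers the summed level of the mRNAs differed many-fold, and between the IP and total RNA of 1 number it differed less. The sum of the 10 members was 2248 counts in IP replicate 1 and 133 in IP replicate 2. It was 777 counts in total RNA replicate 1 and 56 in total RNA replicate 2. As counts per 1000000 of the library total (CPM), with exact 95% intervals for counting error only, these were 136.6 (131.0 to 142.3), 13.4 (11.2 to 15.9), 147.1 (137.0 to 157.8) and 11.4 (8.63 to 14.8). The sum was lower in replicate 2 in both kinds of library, and the IP lay below total RNA in replicate 1 and above it in replicate 2. In these bulk samples, fewer cells of a type and less RNA per cell cannot be told apart.

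To show the members as sequences, the stretch around the start codon of each mRNA is given for 9 members, since RPS2 sits in the subunit that scans to this codon. The start codon is in capitals, with 10 bases before and 10 after it, 5′ to 3′ along the GENCODE M21 coding transcript.
C1qa: cagggacaccATGgagacctctc
C1qb: ggctgagctgATGaagacacagt
C1qc: caccctcaggATGgtcgttggac
Cx3cr1: ggacctcaccATGtccacctcct
P2ry12: aaccaggaccATGgatgtgcctg
Tmem119: atagctcaacATGgtcccctggt
Trem2: gaaaggtgccATGggacctctcc
Tyrobp: tctggccaccATGggggctctgg
Ctss: caggatgaccATGagggctcctg
Counted back from the A of the start codon, the base at position -3 was A in 7 of these members, G in Trem2 and C in C1qb.

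The promoters of the members were searched for the PU box GAGGAA on either strand. This is the core bound by PU.1, the macrophage transcription factor encoded by Spi1. RefSeq promoter windows (build GRCm38.p6) were found for 6 members, and the 250 bases before the start held the motif in 4 of them, against 23.3% of all 32851 windows of that length. A match is a description of letters and not a site. Distances are counted from the RefSeq start. For Trem2 and Ctss this is also the GENCODE start of the gene, whereas the matches of C1qb and C1qc lie 43 and 42 bases before the GENCODE start. The 50 bases around each match are printed 5′ to 3′ on the strand of the gene, with the match in capitals. TTCCTC is the same motif on the other strand.
C1qb (minus strand, chr4:136886203-136886252, 30 bases before the start): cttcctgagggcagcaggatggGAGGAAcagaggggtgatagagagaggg
C1qc (minus strand, chr4:136893080-136893129, 193 bases before the start): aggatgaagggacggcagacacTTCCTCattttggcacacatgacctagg
Trem2 (plus strand, chr17:48346339-48346388, 40 bases before the start): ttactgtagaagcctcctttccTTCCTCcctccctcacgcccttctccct
Ctss (plus strand, chr3:95526600-95526649, 164 bases before the start): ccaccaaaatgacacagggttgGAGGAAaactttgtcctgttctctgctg
The windows of Cx3cr1 and P2ry12 did not hold these letters. Spi1 itself had 15 counts in IP replicate 1, 22 in total RNA replicate 1 and 0 in both libraries of replicate 2. A part of PU.1 in the members' levels or in the difference between the replicate numbers was not tested.

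The 3 chains of C1q, the recognition molecule of the classical complement pathway, are encoded side by side on the minus strand of chromosome 4 (mm10), C1qb at 136880129 to 136886187, C1qc at 136889804 to 136893065 and C1qa at 136895917 to 136898803. C1qa had 516 counts in IP replicate 1, 32 in IP replicate 2, 154 in total RNA replicate 1 and 12 in total RNA replicate 2. C1qb, in the same order, had 342, 5, 134 and 6 counts. C1qc had 544, 24, 215 and 8 counts and was the most counted member in replicate 1. Each chain was lower in replicate 2, in the IP and in total RNA.

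Together the 3 chains supplied 62.4% (60.3 to 64.4) of the members' counts in IP replicate 1 and 64.7% (61.3 to 68.1) in total RNA replicate 1. In replicate 2 they supplied 45.9% (37.2 to 54.7) and 46.4% (33.0 to 60.3). Per kilobase of exon, C1qa stood first in all 4 libraries, at 30.1 CPM per kb in IP replicate 1 (27.6 to 32.9) and 28.0 in total RNA replicate 1 (23.8 to 32.8). C1qb followed at 19.1 (17.1 to 21.2) and 23.3 (19.5 to 27.6), and C1qc at 17.1 (15.7 to 18.6) and 21.1 (18.4 to 24.1), so that the levels of C1qb and C1qc did not differ beyond counting error, nor those of C1qa and C1qb in total RNA. That order depends on the length used. The annotated exons of C1qc span 1931 bases and its coding transcript 1203. Over the transcript C1qc was at 27.5 CPM per kb in IP replicate 1 (25.2 to 29.9), above C1qb. In total RNA replicate 1 it was at 33.8 (29.5 to 38.7), above C1qa (23.8 to 32.8), but these intervals overlap.

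**Figure D1:**
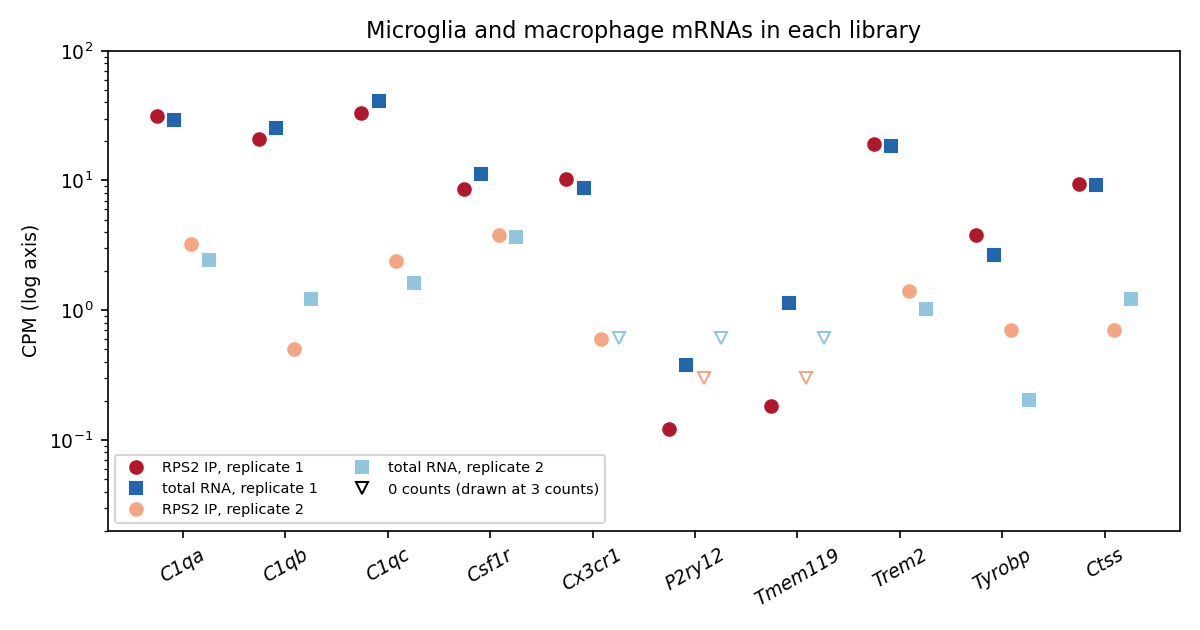
Level of each member as CPM on a log axis, 1 symbol per library, with circles for RPS2 IP and squares for total RNA, dark for replicate 1 and pale for replicate 2. Open triangles stand for 0 counts and are drawn at the level of 3 counts. Dark symbols lie above pale ones for C1qa, C1qb, C1qc, Csf1r, Cx3cr1, Trem2, Tyrobp and Ctss, while P2ry12 and Tmem119 lie near or under the level of 3 counts, except Tmem119 in total RNA replicate 1.

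Trem2 is a surface receptor for lipids and lipoproteins, and Tyrobp (DAP12) is the adaptor through which it signals. Trem2 (chromosome 17, 48346401 to 48354147) had 314 counts in IP replicate 1, 14 in IP replicate 2, 98 in total RNA replicate 1 and 5 in total RNA replicate 2. Tyrobp (chromosome 7, 30413760 to 30417585) had 62, 7, 14 and 1 counts in that order. Receptor and adaptor were both lower in replicate 2, in the IP and in total RNA. Per kilobase of exon Tyrobp was at 5.65 CPM per kb in IP replicate 1 (4.33 to 7.24) and Trem2 at 3.86 (3.44 to 4.31). Over its coding transcript of 1056 bases, in place of 4946 exonic bases, Trem2 was at 18.1 CPM per kb and Tyrobp at 6.68, so the order of this pair also turned with the length.

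Ctss encodes cathepsin S, a lysosomal protease that cuts the invariant chain of MHC class II. Ctss (chromosome 3, 95526786 to 95556403) had 155 counts in IP replicate 1, 7 in IP replicate 2, 49 in total RNA replicate 1 and 6 in total RNA replicate 2. It followed the C1q chains per kilobase of exon in replicate 1, at 6.93 CPM per kb in the IP (5.89 to 8.12), an interval that overlaps that of Tyrobp. This place also depends on the length. Over the coding transcripts in IP replicate 1, Trem2 at 18.1 CPM per kb (16.1 to 20.2) lay above Ctss at 6.95 (5.90 to 8.13).

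Cx3cr1 is the receptor for fractalkine, a ligand displayed by neurons. Cx3cr1 (chromosome 9, 119901616 to 120069879) had 169 counts in IP replicate 1, 6 in IP replicate 2, 46 in total RNA replicate 1 and 0 in total RNA replicate 2. Taking 3 counts as the limit that a count of 0 allows, its level there was up to 0.612 CPM. Of the 30-base stretches of its transcript, 3.76% also occur in other genes, and reads that align to several places were not counted.

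P2ry12, a purinergic receptor that guides microglial processes to ADP, and Tmem119, a membrane protein whose role is little known, were at the edge of detection. P2ry12 (chromosome 3, 59216272 to 59262871) had 2 counts in IP replicate 1, 2 in total RNA replicate 1 and 0 in both libraries of replicate 2. Tmem119 (chromosome 5, 113793729 to 113800516) had 3, 6, 0 and 0 counts in the same order. In replicate 1 P2ry12 supplied 0.0890% of the members' IP counts (0.0108 to 0.321) and Tmem119 0.134% (0.0275 to 0.390). The other 8 members were present, C1qa and Csf1r among them, but the pair most particular to resting microglia was near 0, so the label microglia rests on genes that other macrophages express too. Neither gene passed the low-count filter, and both are left out of the tests below.

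Markers of macrophages at the borders of the brain, of other blood cells and of activated microglia bear on that label. Of 9 border macrophage genes, Stab1, a scavenger receptor, was the only gene tested, with 201, 10, 87 and 1 counts in IP replicate 1, IP replicate 2, total RNA replicate 1 and total RNA replicate 2. Mrc1 had 21, 0, 19 and 1 counts and Pf4 19, 0, 9 and 0 in that order, and Cd163 and Cbr2 were at 0 in every library. The summed counts of the 9 were 259, 18, 121 and 5. Of 12 genes of T cells, B cells, neutrophils, monocytes, NK cells and red cells, 10 were at 0 in every library and the other 2, Ly6g and Hba-a2, had 1 count each. Of the other microglia and macrophage genes described below, Fcrls had 132, 9, 47 and 1 counts in the library order given for Stab1. Sall1 had 159, 50, 69 and 41, and Siglech was at 0 in every library.

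Csf1r encodes the receptor for CSF1 and IL-34 on which microglial survival depends. Csf1r (chromosome 18, 61105572 to 61132149) had 141 counts in IP replicate 1, 38 in IP replicate 2, 59 in total RNA replicate 1 and 18 in total RNA replicate 2. It was lower in replicate 2 like the others, but kept a larger part of its level. Per kilobase of exon Cx3cr1 and Csf1r were the lowest of the 8 detected members in replicate 1, Cx3cr1 at 2.28 and Csf1r at 1.75 CPM per kb for the IP. Total RNA gave 1.93 and 2.29, so their order differed between the libraries. The share of Csf1r in the members' counts was 6.27% (5.31 to 7.36) in IP replicate 1 and 28.6% (21.1 to 37.1) in IP replicate 2. In total RNA the shares were 7.59% (5.83 to 9.69) and 32.1% (20.3 to 46.0). The counting intervals of the replicate numbers did not overlap in either kind of library. Its exons share 871 bases, 17.8% of their length, with Hmgxb3 on the opposite strand, which had 688, 765, 270 and 481 counts in IP replicate 1, IP replicate 2, total RNA replicate 1 and total RNA replicate 2. Reads were counted by strand, and a part of Hmgxb3 reads in the Csf1r counts was not tested.

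**Figure D2:**
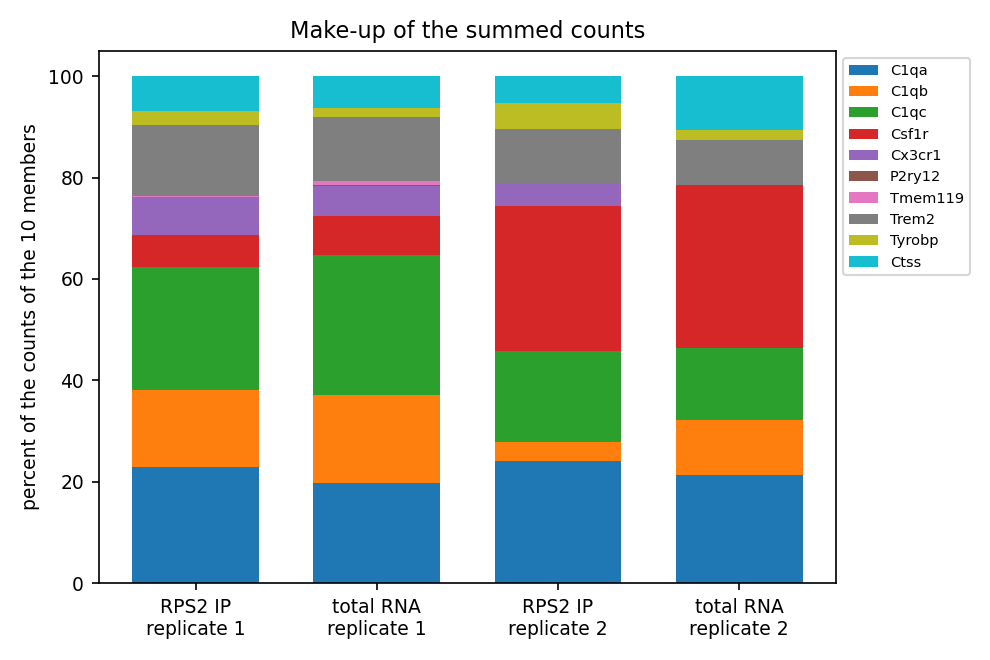
Percent of the summed counts of the 10 members supplied by each member (y axis) in each of the 4 libraries (x axis). The red block of Csf1r is 6.27% and 7.59% in the libraries of replicate 1 and 28.6% and 32.1% in those of replicate 2.

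How far replicate 2 lay below replicate 1 was measured within each kind of library, on library totals without Gm42418. That gene overlaps a ribosomal RNA repeat and took 15.3% to 42.6% of a library's counts. On that scale the members' sum was 12.8-fold lower in replicate 2 in the IP (10.8 to 15.4) and 18.1-fold lower in total RNA (13.8 to 24.2). With 1 library of each kind per number there is no replicate check and no test, and the intervals cover counting error only. Without Csf1r the other 9 were 16.8-fold lower in the IP (13.7 to 20.9) and 24.7-fold lower in total RNA (17.8 to 35.1).

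Of single members, C1qb was 51.9-fold lower in the IP (22.03 to 160.9) and 29.2-fold lower in total RNA (13.1 to 80.9). C1qa was 12.2-fold (8.56 to 18.1) and 16.8-fold lower (9.32 to 33.1), and C1qc 17.2-fold (11.4 to 27.1) and 35.1-fold lower (17.5 to 82.3). In total RNA the intervals of the 3 chains overlap, and in the IP those of C1qa and C1qb do not. Trem2 was 17.0-fold and 25.6-fold lower, Ctss 16.8-fold and 10.7-fold lower, and Tyrobp 6.72-fold and 18.3-fold lower. The counting interval of Tyrobp in total RNA, from 14 and 1 counts, ran from 2.78-fold to 772.7-fold. Cx3cr1 was 21.4-fold lower in the IP and at least 20.0-fold lower in total RNA when its 46 counts are set against a floor of 3. With the counting error of both libraries the lower limit in total RNA was 15.6-fold. Csf1r was 2.82-fold (1.96 to 4.14) and 4.28-fold (2.49 to 7.71) lower. Its intervals lay below those of C1qa, C1qb, C1qc and Trem2 in both kinds of library.

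Over the 12336 genes tested, the median log2 ratio of replicate 2 to replicate 1 was 0.08 in the IP and 0.04 in total RNA. A difference of over 2-fold downward in both kinds of library was found for 5.23% of them, and one of over 2-fold upward for 1.99%. All 8 tested members were over 2-fold lower in both. A gene could pass the filter through the libraries of replicate 1 alone, so this count does not support the difference by itself. The members with at least 10 counts in every library were 2, C1qa and Csf1r. The genes lower than a member in both kinds of library were also counted. There were 0 for C1qb and for Cx3cr1, 9 for C1qc and 11 for Trem2. C1qa and Ctss had 25 each, Tyrobp 46 and Csf1r 179, the last being 1.45% of those tested. The filter bears on these places in the same way, so they do not support the difference by themselves. The place of C1qb rests on 5 counts in IP replicate 2 and 6 in total RNA replicate 2. For Cx3cr1 the total RNA ratio was set by the 0.5 counts added to its 0, so its place is not a measured one.

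**Figure D3:**
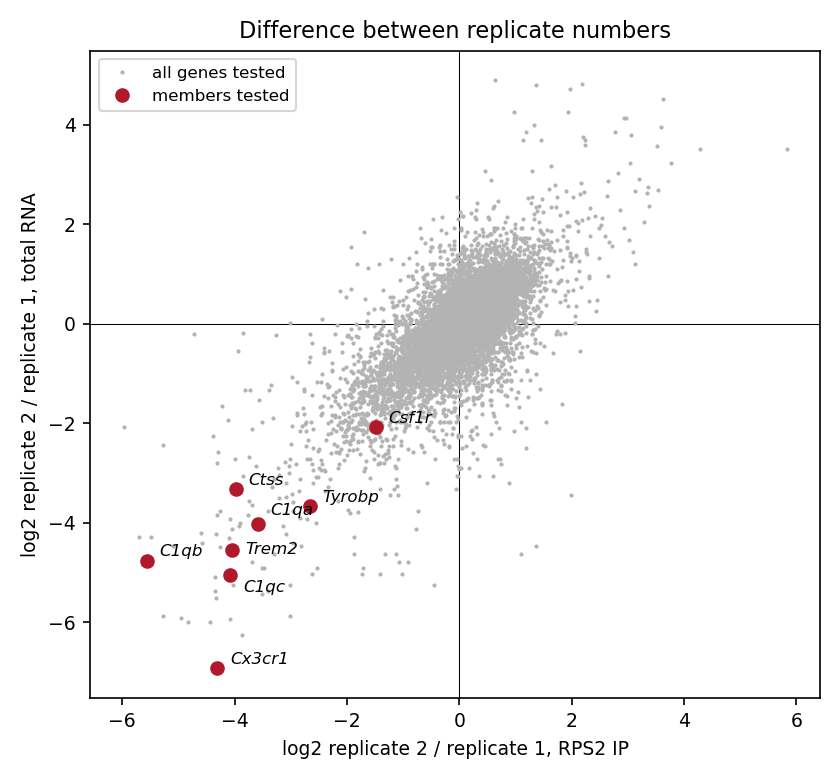
Log2 ratio of replicate 2 to replicate 1 in the RPS2 IP (x axis) and in total RNA (y axis) for the 12336 genes tested (grey) and the 8 members tested (red), with 0.5 counts added to each library. The members lie in the lower left at the edge of the cloud, with Csf1r nearest to it at -1.48 and -2.07.

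The comparison the experiment was built for sets the RPS2 IP against total RNA, a measure of how strongly an mRNA is associated with ribosomes. It was read within each replicate number, with weight on replicate 1, where the counts are high. In replicate 1 the log2 ratio of the members' sum was -0.09 (-0.21 to 0.03), on effective library sizes scaled so that most genes lie near 0. C1qa was at 0.12 (-0.14 to 0.39), Trem2 at 0.06 (-0.28 to 0.40) and Ctss at 0.04 (-0.43 to 0.53). C1qb was at -0.27 (-0.56 to 0.03), Csf1r at -0.37 (-0.81 to 0.10) and C1qc at -0.28 (-0.51 to -0.05). C1qc was the only one of the 8 tested members whose counting interval left out 0. Cx3cr1 was at 0.25 (-0.22 to 0.76) and Tyrobp at 0.52 (-0.33 to 1.48). Tmem119, with 3 and 6 counts, was at -2.62 (-5.25 to -0.40).

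In replicate 2 the ratio of the sum was 0.38 (-0.08 to 0.85). C1qa was at 0.54 (-0.45 to 1.64), C1qc at 0.71 (-0.49 to 2.08), Csf1r at 0.21 (-0.64 to 1.10) and C1qb at -1.14 (-3.19 to 0.84). Trem2 was at 0.61 (-0.94 to 2.44), Ctss at -0.65 (-2.45 to 1.20) and Tyrobp, from 7 and 1 counts, at 1.935 (-1.025 to 7.43). Of the 7 members with counts in both libraries of this number, all had an interval that held 0. The member counts of replicate 2 were too low to show differences of the size seen in replicate 1. In its total RNA 8 of the 10 members had fewer than 10 counts. That library was not shallower on totals without Gm42418, with 4150651 counts against 3179914 in total RNA replicate 1.

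In the fit over all genes, edgeR's quasi-likelihood test with Benjamini-Hochberg adjustment called 0 of the 8 tested members, where 0% of all genes were called, and 0 of the 8 had an unadjusted p under 0.05. The median of the members was 0.08, against 0.01 over all genes. DESeq2 also called 0 members, where 0 of 12336 genes were called higher in the IP and 5 lower. With the replicate number as a block, 6.63% of all genes were called higher in the IP and 7.55% lower, and again 0 of the 8 members were called in either direction. Their median was 0.03 against 0.01 over all genes. In that fit Tyrobp was highest at 0.73 ± 0.57 (SE; edgeR adjusted p 0.445) and C1qb lowest at -0.34 ± 0.25 (edgeR adjusted p 0.422). The best measured members were C1qa at 0.19 ± 0.20 and C1qc at -0.17 ± 0.19 (edgeR adjusted p 0.605 and 0.625). A p that misses the threshold does not show that the members are associated with ribosomes like other mRNAs.

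**Figure D4:**
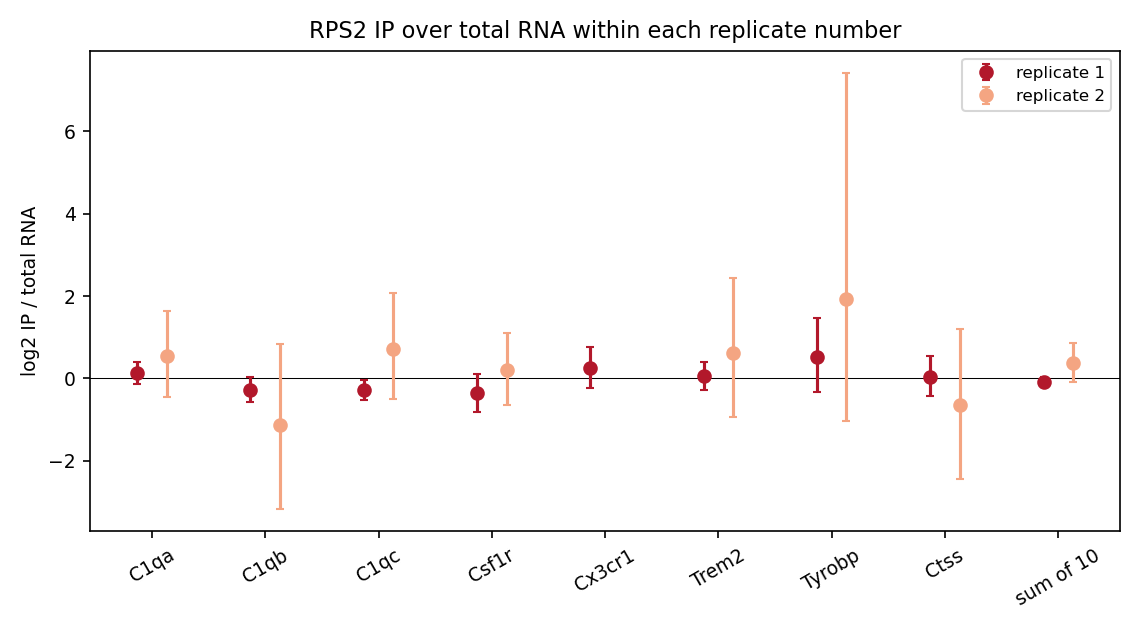
Log2 ratio of RPS2 IP to total RNA (y axis) for the 8 tested members and the sum of the 10, in replicate 1 (dark) and replicate 2 (pale). Bars are exact 95% intervals for counting error. The sum is at -0.09 in replicate 1 and 0.38 in replicate 2, and Cx3cr1 has no point in replicate 2, where total RNA had 0 counts.

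Other genes of microglia and macrophages followed the members only in part. Of 47 listed, 29 were tested. Their median log2 ratio of replicate 2 to replicate 1, averaged over IP and total RNA, was -2.69, against -4.05 for the 8 tested members and 0.06 over all genes. Over 2-fold lower in both kinds of library were 20 of the 29, against 5.23% of all genes tested. Over 2-fold higher in both were 0, against 1.99%. A gene could pass the filter through replicate 1 alone, so these counts and the median do not support a difference by themselves. The same holds for the lists below. Lyz2 (lysozyme) had 689 counts in IP replicate 1, 30 in IP replicate 2, 205 in total RNA replicate 1 and 13 in total RNA replicate 2. Mpeg1, which encodes a pore-forming protein of macrophages, had 335, 12, 116 and 4 in that order. Vsir, an immune checkpoint protein, was 2.81-fold lower in the IP and 2.92-fold lower in total RNA.

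The most abundant genes of that list, Coro1a and Cd68, did not share the difference. Coro1a, an actin regulator of blood cells that neurons also express, was at 74.2, 124.7, 60.6 and 117.4 CPM in IP replicate 1, IP replicate 2, total RNA replicate 1 and total RNA replicate 2. Cd68, a lysosomal membrane protein, was at 31.8, 30.9, 33.1 and 40.2 CPM. Syk, the kinase recruited by TYROBP, was 2.54-fold higher in replicate 2 in the IP and 1.85-fold higher in total RNA. In the IP comparison, 0 of the 29 were called without the block, and with it 0 were higher and 1 lower. That gene was Inpp5d, a lipid phosphatase downstream of TREM2 signalling, at -1.25 ± 0.38 (edgeR adjusted p 0.0130), from 86, 3, 44 and 18 counts in the same order. Its ratio was -0.66 in replicate 1 and -3.46 in replicate 2. It was not called with the GC and length offset (edgeR adjusted p 0.0631) and had no adjusted p in DESeq2 with the block.

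Among 21 ligands and partners of the members, 17 were tested, and 8 were over 2-fold lower in replicate 2 in both kinds of library, with a median of -1.21. The ligands differed among themselves. Cx3cl1, the neuronal ligand of CX3CR1, was at 917.7, 1283, 855.5 and 1295 CPM in IP replicate 1, IP replicate 2, total RNA replicate 1 and total RNA replicate 2. Csf1 was 3.20-fold lower in the IP and 3.89-fold lower in total RNA, and Il34, the other ligand of CSF1R, 1.504-fold and 1.661-fold. Apoe, a lipoprotein bound by TREM2, was 4.39-fold and 3.66-fold lower.

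Of the complement genes downstream of C1q, C3 was 19.2-fold and 22.7-fold lower, in the range of the C1q chains, and C4b 5.65-fold and 7.48-fold. Lyn, a kinase of the immune receptor pathway, had 26, 2, 22 and 0 counts, and was the lowest of the list only where 0.5 counts were added to its 0. In the IP alone it was 9.87-fold lower, less than C3. With the block, Cst3, an inhibitor of cathepsins, was called higher in the IP at 0.71 ± 0.10 (edgeR adjusted p 1.4e-09), and Cd47, the ligand of SIRPα, at 0.56 ± 0.11 (edgeR adjusted p 3.1e-05). The others of this list were not called in that fit. Cx3cl1 was called higher in the IP when the GC and length offset was added to the block (0.31, edgeR adjusted p 0.0411).

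Of 16 genes linked to activated microglia, 10 were tested and 5 were over 2-fold lower in replicate 2 in both kinds of library, with a median of -1.04. Spp1 (osteopontin) had 935, 29, 282 and 17 counts in IP replicate 1, IP replicate 2, total RNA replicate 1 and total RNA replicate 2. Gpnmb had 1403, 125, 438 and 51 in that order. The cathepsins Ctsb, Ctsd and Ctsl, which most cell types express, were 1.40-fold to 1.82-fold lower. Cst7 and Tnf were at 0 in every library. With the block Cd63 (0.71), Cd9 (0.64) and Ctsb (0.31) were called higher in the IP, with edgeR adjusted p of 4.2e-07, 7.3e-05 and 0.0198. Cst3, Cd47 and Cd63 were called in all 4 blocked fits, while DESeq2 with the block gave an adjusted p of 0.0529 for Cd9 and 0.0578 for Ctsb.

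Markers of other cells were read in the same way. The 11 neuron genes summed to 4084, 5334, 3709 and 6133 CPM in IP replicate 1, IP replicate 2, total RNA replicate 1 and total RNA replicate 2. Of these 0 were over 2-fold lower in both kinds of library, and the median was 0.15. Map2 was at 916.8, 1138, 838.3 and 1587 CPM, Slc17a7 at 598.6, 913.5, 626.8 and 889.6, and Syt1 at 721.0, 689.9, 624.9 and 825.8. Neurod6, the lowest, was 2.66-fold lower in the IP and 1.16-fold lower in total RNA. Of 8 tested astrocyte genes 4 were over 2-fold lower, with a median of -1.14, and Gfap was the lowest at 5.65-fold in the IP and 5.74-fold in total RNA. Slc1a2, the most abundant, was 1.68-fold and 1.59-fold lower, and Atp1b2 2.09-fold and 1.77-fold. The 9 listed astrocyte genes summed to 3695, 2131, 2941 and 2090 CPM, with none of them at 0. Of 6 tested oligodendrocyte lineage genes 2 were over 2-fold lower, with a median of -0.59, and 5 were lower to some extent in both. Cspg4, the lowest, was 3.98-fold lower in the IP and 4.10-fold lower in total RNA, and Olig1 1.42-fold and 1.06-fold. Mbp, the most abundant, was the exception, at 29.95, 49.6, 27.8 and 51.0 CPM. Of 12 endothelial, mural and fibroblast genes 3 were tested, Pdgfrb, Col1a1 and Col1a2. They were lower in replicate 2 by 4.22-fold, 5.22-fold and 8.18-fold in the IP and 3.51-fold, 4.06-fold and 26.1-fold in total RNA, while the endothelial marker Cldn5 was at 0 in every library. The 5 dividing cell genes had 23, 4, 11 and 8 counts in all, Top2a having 8, 1, 8 and 4, Birc5 1, 1, 0 and 4 and Mki67 4, 2, 2 and 0, and none was tested. With the block Snap25 (0.37) among the neuron genes and Aqp4 (0.49), Slc1a3 (0.34) and Atp1b2 (0.50) among the astrocyte genes were called higher in the IP. Each of these 4 lost its call in at least 1 other blocked fit. The part of astrocytes and the other cells in the members' difference was not tested.

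**Figure D5:**
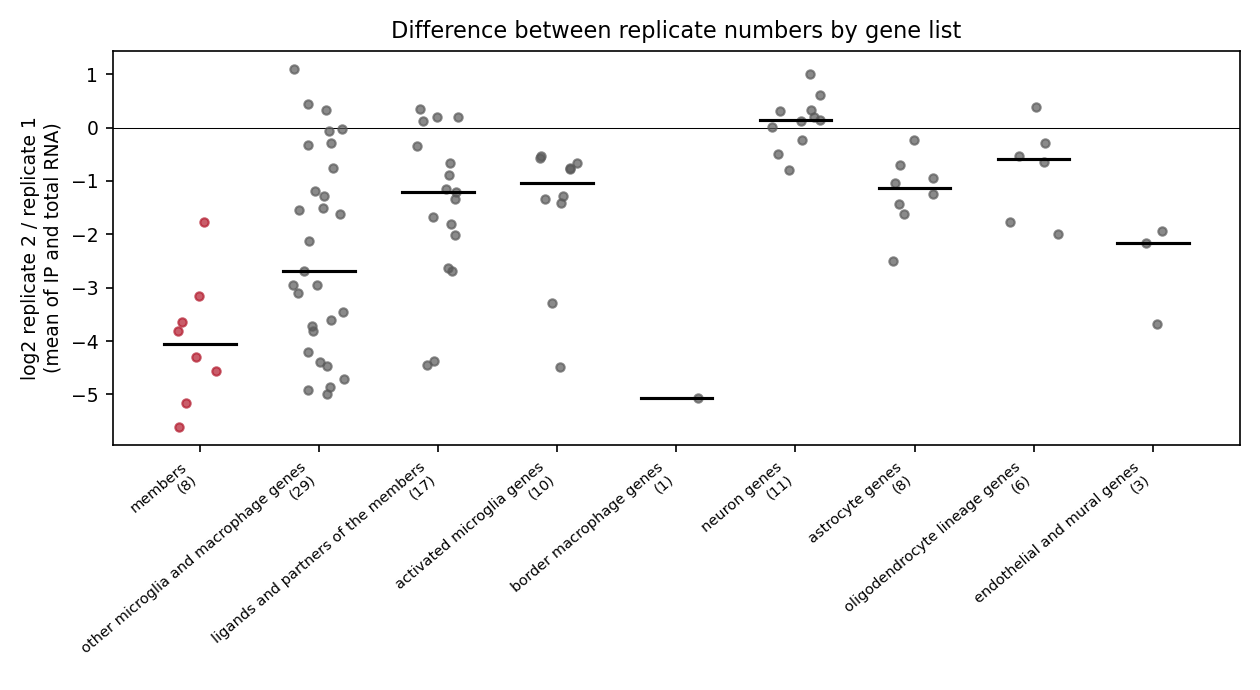
Log2 ratio of replicate 2 to replicate 1, as the mean of the IP and total RNA ratios (y axis), for each tested gene of each list, with the number tested in brackets and a bar at the list's median. The medians are -4.05 for the members, -2.69 for the other microglia and macrophage genes, -1.14 for astrocyte genes and 0.15 for neuron genes.

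The genes whose profile was most like that of the members' sum were sought among 14262 genes with at least 10 counts over the 4 libraries, by the Euclidean distance of log2 CPM, on effective library sizes and with 2 counts added, centred on the gene's mean. For genes with few counts in replicate 2 the added counts largely set this distance, so their order is a description only. Abcc3, an export pump of organic anions, was nearest at 0.16, with 71, 2, 24 and 0 counts in IP replicate 1, IP replicate 2, total RNA replicate 1 and total RNA replicate 2. Lyz2 followed at 0.27 and Adgre1, which encodes the macrophage antigen F4/80, at 0.36, with 66, 2, 17 and 0 counts. Prelp, a protein of connective tissue matrix, was at 0.39 and Ccdc190 at 0.43. Lyz2 and Adgre1 were on the list of microglia and macrophage genes, and the other 3 were on none of the lists.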

How the data were processed

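The authors deposited 1 file of raw read counts per gene and library, not normalized, with exonic lengths. Per the file headers they counted stranded reads with featureCounts 1.5.3, and per the study's methods reads were trimmed with cutadapt and aligned to mm10 with STAR. Identifiers were matched to GENCODE M21 (30934 of 31053 had a symbol). No removal of PCR duplicates is named. The intervals cover counting error only and treat reads as independent, so they are too narrow if duplicates were kept. Library totals ran from 4899718 to 16460545 counts, and a level of 3 counts was 0.182 to 0.612 CPM.

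Counts of all 4 libraries were fitted in R 4.3.3 with edgeR 4.0.16 (filterByExpr, TMM, quasi-likelihood test, two-sided, Benjamini-Hochberg over 12336 genes, threshold 0.05), group only. The scripts were tested on simulated data. Alternatives were the replicate block, other scalings and filters, DESeq2 1.42.0 and leaving out each library. The methods say that total RNA was taken before the IP, so equal numbers were read as pairs, and their deviations from the group means correlated at 0.73 over 12336 genes. Differences between the numbers were described and not tested.

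The members and lists were chosen with earlier results of these data known. Named from each other list were the called genes, the most abundant (6 of the microglia and macrophage list, of which 1 is not reported here, 3 of the others) and the lowest of the lists with tested genes, and 5 genes by likeness. Spi1, Syk, Il34, Csf1, C3, C4b, Gpnmb, Cst7, Tnf, Cd163, Cbr2 and Cldn5 were named for their role after their values were seen. The same holds for Fcrls, Sall1 and Siglech.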

Additional observations from a re-analysis of the deposited data

How the results depend on the processing

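Members called between IP and total RNA stayed at 0 under the replicate block, the block with a GC and length offset or with library size only, library size only, median-ratio size factors, DESeq2, no low-count filter, and at least 10 counts in every library, where 2 members were left. These counts of 0 say nothing about stability for library size only, median-ratio factors and the 10-count filter, where 0 of all genes were called. They say little for DESeq2 without the block, with 5 of 12336 genes called, and for no low-count filter, with 14 of 18124. DESeq2 with the block gave an adjusted p to 0 of the 8 members, so none could be called, and the lowest unadjusted p was 0.299. Leaving out 1 library each gave 0 to 1. The 1 was C1qb, at -5.03 without RPS2 IP replicate 1 (edgeR adjusted p 0.00698, from 0.00698 to 1 over its 12 alternatives). The members' median log2 fold change of 0.08 ranged from -3.15 (without RPS2 IP replicate 1) to 3.76 (without total RNA replicate 1), with -0.87 without total RNA replicate 2 and 0.99 without RPS2 IP replicate 2. Such a fit compares different replicate numbers, and the lone library is assumed to vary like the others. Other microglia and macrophage genes called numbered 1 in place of 0 with the replicate block (Inpp5d, lower), 1 with library size only and the block (Inpp5d), and 1 with the offset and the block, where it was Coro1a (higher, 0.39, edgeR adjusted p 0.00823) and not Inpp5d. DESeq2 with the block called 0 and gave Inpp5d no adjusted p (unadjusted p 0.0136). Of the other genes named as called, Snap25 had an edgeR adjusted p of 0.152 with the offset and the block. With library size only and the block it was 0.290 for Snap25. In that fit it was 0.0523 for Aqp4, 0.0945 for Atp1b2, 0.343 for Slc1a3 and 0.497 for Ctsb. The offset and the block added calls of Cx3cl1, Lpl and Slc1a2, higher in the IP (edgeR adjusted p 0.0411, 0.0388 and 0.00435). The block changed no member's call. Over all genes it gave 818 higher and 931 lower in place of 0, 650 and 253 with the offset, and 158 and 382 in DESeq2, which left adjusted p for 4683 genes. DESeq2 without the block gave 0 and 5, and 349 genes had an unadjusted p under 0.05 in edgeR.

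The members' summed CPM depended on the denominator. On totals without Gm42418 it was 238.1 in IP replicate 1, 18.6 in IP replicate 2 and 244.3 in total RNA replicate 1. On effective library sizes it was 162.5 in IP replicate 1 and 173.0 in total RNA replicate 1. Without C1qc it was 103.5, 11.0 and 106.4 in IP replicate 1, IP replicate 2 and total RNA replicate 1. The difference between the replicate numbers was -3.68 in the IP and -4.18 in total RNA on the log2 scale, and -3.77 and -4.23 on effective library sizes. Replicate 2 is limited by its low member counts, 133 in the IP and 56 in total RNA.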
